A study of Homo sapiens with 12 samples.

Results

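Translation factors are the proteins that bring ribosome, initiator tRNA and mRNA together and then drive the ribosome along the message. In the count matrix of U937 cells, 61 of 44786 gene symbols were taken as translation initiation and elongation factors. Their symbols begin with EIF1 to EIF6 or with EEF1 or EEF2. EIF2AK2 was left out, and so were 6 symbols with a hyphen and 3 symbols in which a P is followed by a digit. The matrix gives values per transcript, and each symbol is represented by the transcript whose mean over all 12 libraries was highest. Of the 61 factors, 47 had at least 10 normalized reads in at least 3 libraries and were tested.

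U937 is an established human myelomonocytic leukemia line. Cells were left untreated or received 200 nM decitabine (DAC), 1 µM all-trans retinoic acid (ATRA) or both agents (DAC + ATRA), with 3 libraries in each of the 4 groups. The labels give 20% FCS and 5 ng/ml GM-CSF for all groups, and a treatment period of 3 days, yet 96 h for untreated and 72 h for treated cells, whereas the study's methods name another serum content, 72 h for all and a later addition of ATRA than of DAC. If the 96 h hold, time and treatment cannot be told apart. The series' design text calls the triplicates technical, so each p-value measures only the spread between these libraries.

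DAC is a cytosine analogue that is built into DNA and traps DNA methyltransferases, and ATRA is the ligand of the retinoic acid receptors. At initiation, eIF2 carries the initiator tRNA to the small ribosomal subunit, eIF3 forms a scaffold on that subunit, and the eIF4 proteins recognise the mRNA cap and unwind the leader. eIF1, eIF1A, eIF5 and eIF5B control the choice of the start codon and the joining of the subunits. The guanine nucleotide exchange factor eIF2B recycles eIF2, and the eIF2 kinases block that step under stress. During elongation, eEF1A delivers aminoacyl-tRNA and eEF2 moves the ribosome by a codon.

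Many mRNAs of the translation machinery begin with a terminal oligopyrimidine tract, a C followed by a run of C and T, through which the mTOR pathway and the RNA-binding protein LARP1 control them. RefSeq start sites on GRCh38.p14 were found for 49 of the 61 factors. A C at the annotated start followed by at least 4 bases that are each C or T was present at a start of 12 of these 49 genes (24.5%), against 5.14% of 27305 genes and 4.07% of 35116 start sites. Only the sense strand at the start base was read. Below, 6 of these starts are shown because they belong to the elongation factors EEF2 and EEF1A1, 3 initiation factors that fell with DAC + ATRA and EIF3F, which did not pass the threshold. Each run has 15 bases before the start and 15 from it onward, with the tract in capitals.
EEF2, chr19:3985449-3985478, minus strand: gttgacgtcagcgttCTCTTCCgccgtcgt
EEF1A1, chr6:73521018-73521047, minus strand: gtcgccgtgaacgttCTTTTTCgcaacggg
EIF4B, chr12:53006441-53006470, plus strand: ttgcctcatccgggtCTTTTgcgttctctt
EIF2S3, chrX:24054941-24054970, plus strand: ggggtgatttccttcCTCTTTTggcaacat
EIF2D, chr1:206612451-206612480, minus strand: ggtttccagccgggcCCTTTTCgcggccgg
EIF3F, chr11:7987322-7987351, plus strand: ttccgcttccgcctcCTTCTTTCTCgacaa
The other genes with such a start were EEF1B2, EIF2A, EIF3D, EIF3K, EIF3M and EIF4A2. The tract was also looked at beside the expression values below. Of the factors' 65 annotated start windows of 300 bases, 87.7% had a GC content over 50% and a ratio of observed to expected CpG over 0.6, against 46.8% of all starts. Which start site was used in U937 cells was not measured.

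The libraries held 8042435 to 10683593 counted reads, of which 40.6% to 42.5% were mitochondrial without treatment, 37.0% to 40.4% after DAC, 38.9% to 41.1% after ATRA and 36.3% to 38.3% after both agents. The ranges after DAC and after both agents did not overlap the untreated one, and their part in the results was not tested. Libraries of a group differed by more than counting error, with chi-square values of 2.36 to 10.4 per degree of freedom. Of 8 myelomonocytic markers, 6 reached 10 normalized reads in every group mean. CD68 stayed below 10 in every library, and PTPRC was at 0 in all of them. The markers did not move together. LYZ averaged 164 normalized reads without treatment, 806 after DAC, 179 after ATRA and 1097 after both agents, ITGB2 112, 302, 419 and 494, and CD33 846, 835, 809 and 760.1. The summed level of the 8 markers, most of it MPO, was 53727 without treatment, 28860 after DAC, 35067 after ATRA and 17673 after both agents, and its part in the results below was not tested. Of 10 markers of other cell types, 8 were below 10 normalized reads in every library, and the summed level of all 10, most of it COL1A1, was 24.5 without treatment, 250.4 after DAC, 51.5 after ATRA and 155 after both agents. Its part in the results was not tested either.

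The rows of the translation factors took 1.35% to 1.47% of the counted reads without treatment, 1.27% to 1.41% after DAC, 1.20% to 1.37% after ATRA and 1.08% to 1.14% after both agents. EEF2 alone accounted for 71.1% of the reads on the 61 symbols. By its default, HTSeq does not count reads that fit several annotated transcripts, and the bases that a transcript shares with no other transcript of its strand were therefore computed. The median of the tested factors was 1489 such bases in GENCODE 44, and EIF2B5 with 93, EIF4G1 with 45, EIF3I with 4 and EIF4E2 with 0 had the fewest. As EIF3I and EIF4E2 still had means of 2409 and 60.5 normalized reads over the 12 libraries, their values cannot rest on these bases alone, and neither the counting mode nor the annotation release of the authors is given in the sources used here. Levels per kilobase below divide by the full annotated length of the transcript and not by these bases, and they rank the transcripts only under that limit. The transcript representing a gene was annotated as protein-coding for 29 tested factors and as a retained intron for 16. EIF2AK4 and EIF4G3 were represented by transcripts of other types. A value is therefore the level of that transcript and not the abundance of the gene's mRNA. If reads that fit several transcripts were not counted, a row can be at 0 although its gene is expressed. Values of 0, such as those of PTPRC, EEF1D and EEF1G, therefore do not show absence of expression.

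Relative to untreated cells, more translation factors fell than rose with DAC and with DAC + ATRA, whereas over all rows more rose than fell. With DAC, 12 of the 47 factors fell and 4 rose (limma, adjusted p under 0.01), at a background of 8.74% of all 9034 rows lower and 30.6% higher. With DAC + ATRA, 17 fell and 5 rose, at a background of 14.2% lower and 32.6% higher. With ATRA, 1 fell and 1 rose, where the background was 2.67% and 6.45%. With DAC, 6 of the 12 falls and 1 of the 4 rises were in transcripts annotated as protein-coding. With DAC + ATRA, 10 of the 17 falls and 1 of the 5 rises were. The factors had median log2 fold changes of -0.19, -0.19 and -0.46 with DAC, ATRA and DAC + ATRA, against 0.22, 0.00 and 0.20 for all rows. Below the median of all rows lay 39 of 47 factors after DAC, 33 after ATRA and 36 after both.

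The scaling of the libraries changed the share of rising and falling factors. With edgeR's TMM scaling in the same limma test, the median of all rows moved to 0.02 with DAC and 0.06 with DAC + ATRA. Then 20 factors fell and 1 rose with DAC (background 17.5% lower and 25.4% higher), and 23 fell and 3 rose with DAC + ATRA (background 20.1% and 29.2%). The distance between the median of the factors and that of all rows was -0.41, -0.20 and -0.66 in the comparisons of DAC, ATRA and both agents, and -0.41, -0.22 and -0.66 after TMM. The count with DAC rested in part on single libraries. It was 8 in place of 16 without untreated library 2, 10 without untreated library 3 and 10 without DAC library 6, while the count over all rows went from 3556 to 3008, 3006 and 3044. The 2 calls with ATRA became 0 without untreated library 2 or 3 or ATRA library 8, 1 without untreated library 1 or ATRA library 7, and 4 without ATRA library 9. Over all rows the count with ATRA was 824 and ran from 620 to 1027 in the fits with a library left out. With DAC + ATRA the count stayed between 17 and 22 when each library was left out in turn. With the protein-coding transcript of the highest mean in place of the one described, 34 factors could be tested. With DAC 8 of them passed (7 fell and 1 rose), where 39.3% of all rows in that fit passed in either direction. With DAC + ATRA 13 passed (11 fell and 2 rose), against 46.8% of all rows. The shares of all rows by direction were not counted for that fit.

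**Figure D1:**
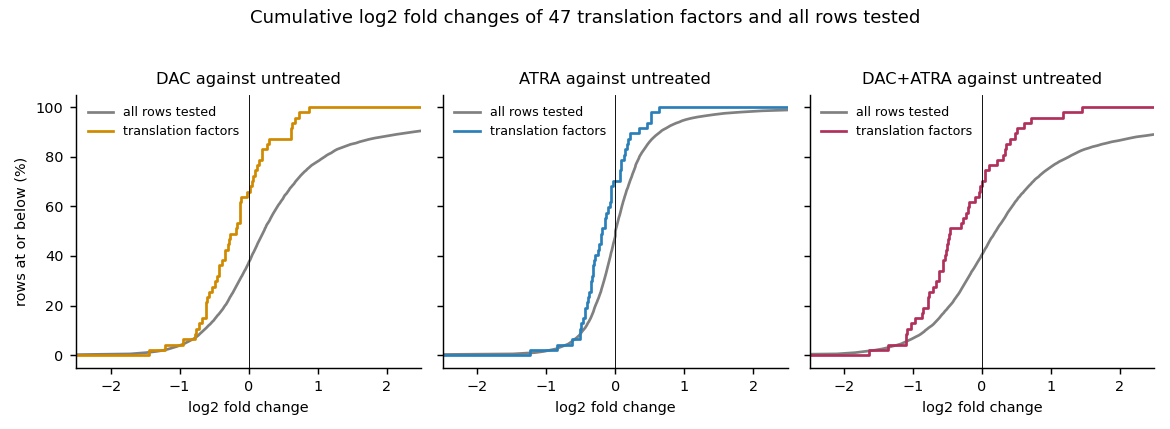
Cumulative share (y axis, %) of the 47 translation factors (coloured) and of all 9034 rows tested (gray) at or below each log2 fold change (x axis), for each treatment against untreated cells. The curve of the factors lies to the left of that of all rows over most of its length, with medians of -0.19, -0.19 and -0.46 against 0.22, 0.00 and 0.20.

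The comparisons with untreated cells share the untreated libraries, so their values stand side by side below. In none of them did 21 of the 47 factors pass the threshold, and the matching share of all rows was not counted.

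**Figure D2:**
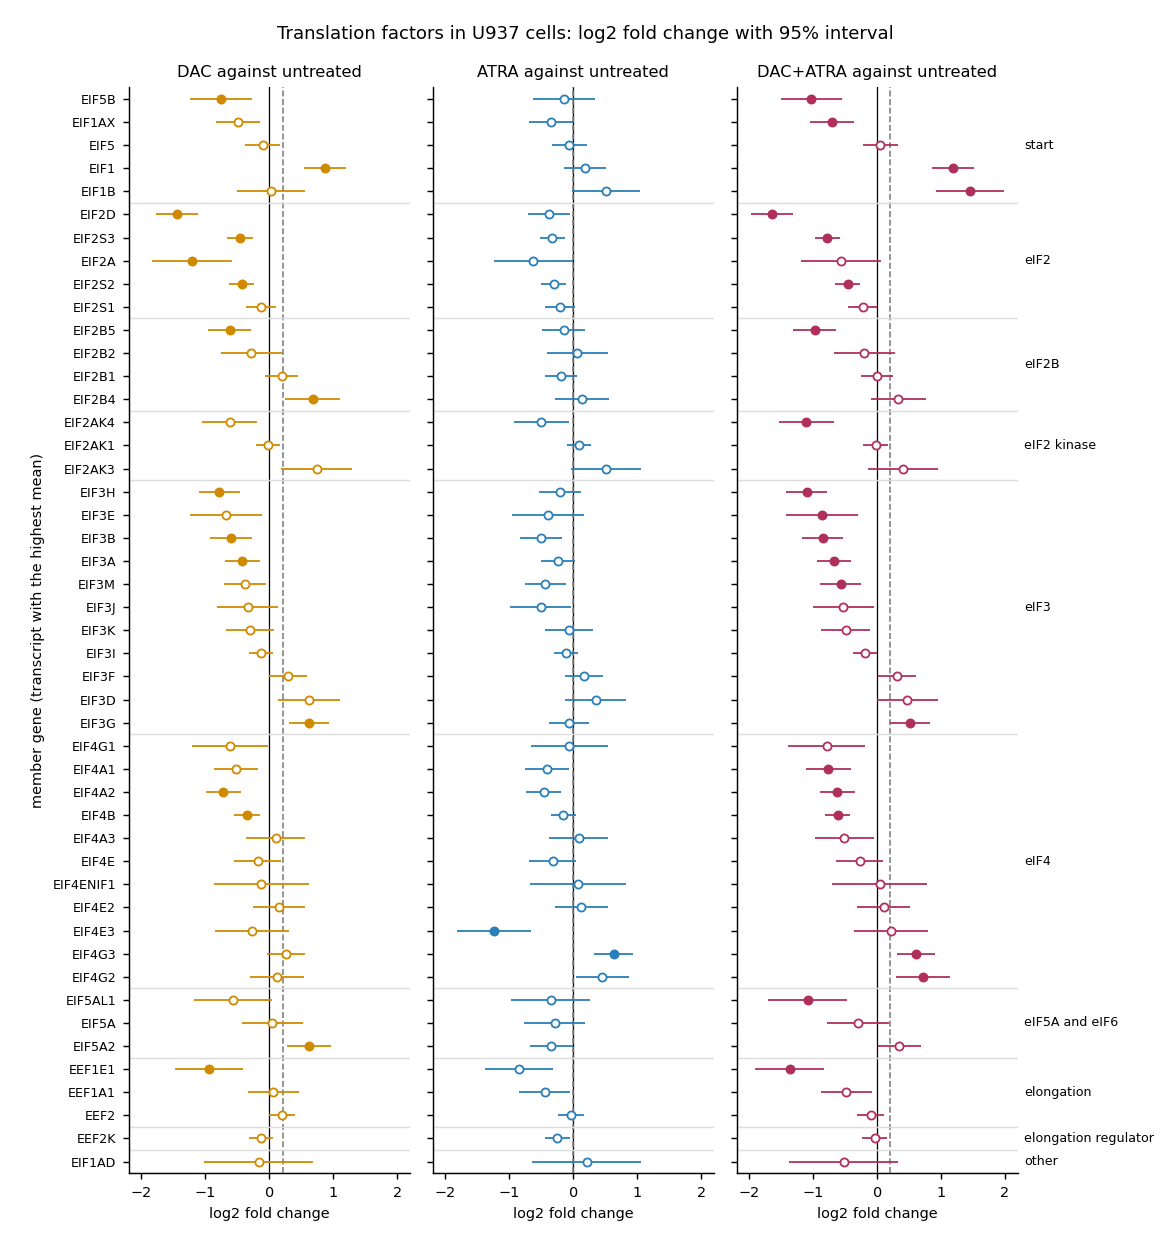
Log2 fold change (x axis) with 95% interval for each of the 47 tested translation factors (y axis), grouped by role, in 3 comparisons with untreated cells; filled points passed an adjusted p under 0.01 in limma and the dashed line is the median of all rows. Filled points lie left of 0 for 17 factors with DAC + ATRA, among them EIF2D at -1.64, and right of 0 for 5, among them EIF1B at 1.45.

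Among the factors that act at the start codon, EIF1 and EIF1B rose whereas EIF5B and EIF1AX fell with DAC + ATRA. Per kilobase of transcript, the highest untreated level of this group was that of EIF1AX (647 normalized reads per kb). EIF1 keeps the scanning ribosome open until the start codon is found. Its values were 198, 172 and 159 normalized reads without treatment, 273, 324 and 375 after DAC, 208, 248 and 153 after ATRA and 374, 414 and 410.3 after both agents. The DAC and the DAC + ATRA libraries all lay above the untreated ones, while the ATRA libraries overlapped them. The log2 fold change was 0.87 with DAC (SE 0.16, limma adjusted p = 0.000104), 0.18 with ATRA (adjusted p = 0.526) and 1.18 with DAC + ATRA (adjusted p = 1.96e-06). The transcript, ENST00000462917 on chromosome 17 from 41688885 to 41691646 (plus strand, hg38), is annotated as a retained intron. In the protein-coding EIF1 transcript with the highest mean, the log2 fold change with DAC was 0.21 (limma adjusted p = 0.317).

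EIF1B, the paralogue of EIF1, had the largest rise of all factors with DAC + ATRA, and the combination exceeded either agent. Its values were 125, 113 and 107 normalized reads without treatment, 110.3, 184 and 77.7 after DAC, 222, 138 and 144 after ATRA and 308, 261 and 386 after both agents. All DAC + ATRA libraries lay above those of every other group, and the ATRA libraries above the untreated ones. On the log2 scale DAC + ATRA exceeded untreated cells by 1.45 (SE 0.25, limma adjusted p = 0.0001), DAC by 1.42 (adjusted p = 0.00053) and ATRA by 0.93 (adjusted p = 0.00568; with TMM scaling 0.82, adjusted p = 0.0102). EIF1B was the 1 factor that passed the threshold between DAC + ATRA and DAC, at a background of 6.07% higher and 5.25% lower. That count was 2 without DAC library 6 and 3 without ATRA library 9, while the count over all rows went from 1022 to 828 and 1253. In a fit of the compared groups alone, EIF1B did not pass (limma adjusted p = 0.0166), and EEF2 did, with a log2 fold change of -0.30 (adjusted p = 0.00564). The protein-coding transcript, ENST00000232905, lies at chr3:40309707-40312424 (plus strand, hg38). The long noncoding RNA EIF1B-AS1 starts 165 bases away on the other strand. Its transcript ENST00000625390 had 3.98 ± 0.55 normalized reads without treatment (SD, n = 3 libraries in every group), 12.9 ± 3.10 after DAC, 30.9 ± 7.60 after ATRA and 51.7 ± 5.63 after both agents. None of the 470 unshared bases of EIF1B is covered by a GENCODE 44 transcript of the opposite strand. How the authors' counting treated strand is not given in the sources used here.

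EIF5B, the GTPase that joins the ribosomal subunits, had 49.6, 75.6 and 75.7 normalized reads without treatment, 46.5, 36.0 and 33.9 after DAC, 50.7, 57.3 and 72.4 after ATRA and 41.6, 29.5 and 26.0 after both agents. The ATRA libraries overlapped the untreated ones and the others lay below them. EIF5B fell by 0.76 on the log2 scale with DAC (limma adjusted p = 0.00943) and by 1.03 with DAC + ATRA (adjusted p = 0.000719). This holds for the retained-intron transcript ENST00000470023 on chromosome 2 from 99397047 to 99399774 (plus strand). In the protein-coding transcript of EIF5B the log2 fold change was -0.04 with DAC (limma adjusted p = 0.898) and 0.11 with DAC + ATRA (adjusted p = 0.687). EIF1AX, the X-linked gene of eIF1A, fell by 0.71 with DAC + ATRA (SE 0.16, limma adjusted p = 0.00121), from 2854 ± 283 to 1747 ± 229 normalized reads. EIF5, the GTPase-activating protein of eIF2, had a log2 fold change of 0.05 with DAC + ATRA and a 95% interval from -0.22 to 0.32. EIF1AY was not tested.

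All 5 tested members of the eIF2 group were below the untreated level with each treatment, as were 37.1%, 48% and 40.5% of all rows after DAC, ATRA and both agents. With DAC 4 fell (8.74% of all rows), with DAC + ATRA 3 fell (14.2%), and none passed the threshold with ATRA. EIF2S3, the gamma subunit that binds GTP and the initiator tRNA, had 5468, 5770.4 and 5558 normalized reads without treatment, 4664, 3965 and 3649 after DAC, 4726, 4307 and 4345 after ATRA and 3159, 3219 and 3412 after both agents. The treated libraries all lay below the untreated ones, and those with DAC + ATRA were the lowest. EIF2S3 fell by 0.46 on the log2 scale with DAC (SE 0.09, limma adjusted p = 0.000374) and by 0.78 with DAC + ATRA (adjusted p = 4.82e-07), and had a log2 fold change of -0.33 with ATRA (adjusted p = 0.0207). The protein-coding transcript is ENST00000253039 on chromosome X from 24054956 to 24078810 (plus strand).

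EIF2S2, the beta subunit, had the highest untreated level of the group per kilobase (3659 normalized reads per kb), and it fell by 0.43 with DAC (limma adjusted p = 0.000678) and by 0.46 with DAC + ATRA (adjusted p = 0.000292). For EIF2S1, the alpha subunit that the eIF2 kinases phosphorylate, the log2 fold change under DAC + ATRA came to -0.23 with a 95% interval from -0.46 to 0.00. EIF2D and EIF2A are separate proteins that can place an initiator tRNA on the ribosome without eIF2. EIF2D showed the largest fall of all factors. Its values were 159, 160.2 and 188 normalized reads without treatment, 72.4, 54.6 and 58.8 after DAC, 142, 130.2 and 118 after ATRA and 57.9, 51.6 and 50.7 after both agents. The libraries with DAC, alone or with ATRA, lay far below all others. EIF2D fell by 1.44 with DAC (SE 0.16, limma adjusted p = 1.53e-07) and by 1.64 with DAC + ATRA (adjusted p = 1.69e-08). With ATRA the log2 fold change was -0.38 (adjusted p = 0.126). The value is that of a retained-intron transcript, ENST00000617960, on chromosome 1 from 206594040 to 206603501 (minus strand). EIF2A, likewise represented by a retained-intron transcript, fell by 1.21 with DAC (limma adjusted p = 0.00187), from 38.5 ± 4.27 to 16.8 ± 6.58 normalized reads, and had 25.7 ± 2.38 after both agents (-0.57, adjusted p = 0.11). EIF2S3L was not tested.

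Of the exchange factor eIF2B, the catalytic epsilon subunit EIF2B5 fell and the delta subunit EIF2B4 rose with DAC, and only EIF2B5 passed the threshold with DAC + ATRA. EIF2B5 had 131, 121 and 114 normalized reads without treatment, 90.8, 76.0 and 71.7 after DAC, 99.3, 112 and 118 after ATRA and 71.4, 53.7 and 60.6 after both agents. The ATRA libraries overlapped the untreated ones and the others lay below. The log2 fold change was -0.62 with DAC (limma adjusted p = 0.00313) and -0.98 with DAC + ATRA (adjusted p = 2.76e-05). The transcript ENST00000481054, a retained intron on chromosome 3 from 184135385 to 184145311 (plus strand), has 93 unshared bases. EIF2B4 rose by 0.68 with DAC (limma adjusted p = 0.00913), a call that was lost with TMM scaling (0.48, adjusted p = 0.0746). The EIF2B4 transcript, ENST00000475582, is likewise annotated as a retained intron. EIF2B1, with the highest untreated level of the complex per kilobase (446 normalized reads per kb), had a log2 fold change of -0.01 with DAC + ATRA and a 95% interval from -0.26 to 0.25. EIF2B3 was not tested.

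Among the eIF2 kinases, EIF2AK4 (GCN2, which senses uncharged tRNA) fell with DAC + ATRA. It had 69.9, 75.6 and 84.0 normalized reads without treatment, 61.6, 48.7 and 39.8 after DAC, 64.4, 47.3 and 50.8 after ATRA and 29.8, 41.1 and 34.6 after both agents. The treated libraries all lay below the untreated ones. The log2 fold change was -1.11 with DAC + ATRA (SE 0.20, limma adjusted p = 0.000101), -0.62 with DAC (adjusted p = 0.0158) and -0.50 with ATRA (adjusted p = 0.118). Its transcript ENST00000624709, on chromosome 15 from 39976979 to 39978292 (plus strand), has a single exon and no assigned coding sequence. EIF2AK1 (HRI, the heme-regulated kinase) had the highest untreated level of the kinases per kilobase, 989 normalized reads per kb, and a log2 fold change of -0.02 with DAC + ATRA (95% interval from -0.21 to 0.17). EIF2AK3 (PERK, which responds to stress of the endoplasmic reticulum) had 39.1 ± 7.49 normalized reads in untreated and 66.8 ± 19.8 in DAC-treated cells (log2 fold change 0.74, limma adjusted p = 0.0245).

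**Figure D3:**
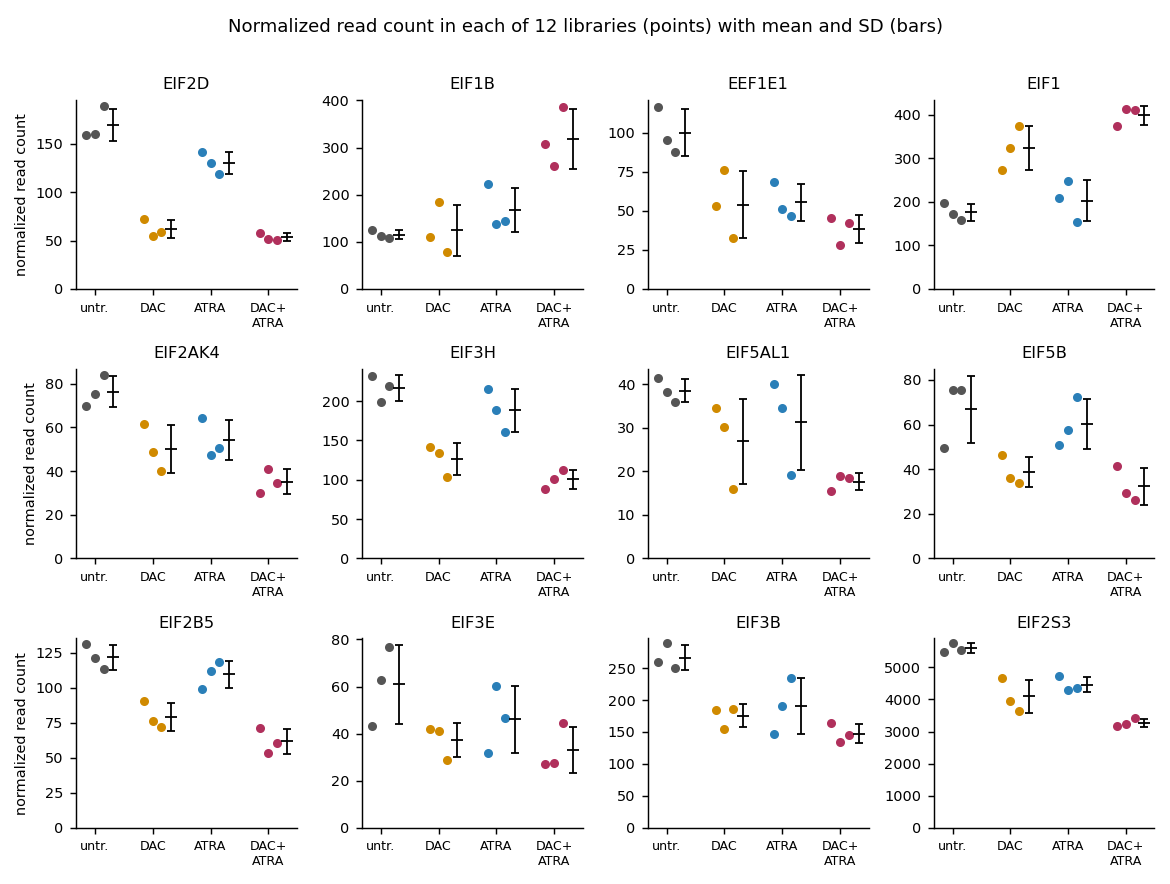
Normalized read count (y axis, from 0) in each of the 3 libraries of the 4 groups (points) with mean and SD (bars) for the 12 changed factors with the largest absolute log2 fold change in DAC + ATRA against untreated cells. EIF1 and EIF1B are highest with DAC + ATRA, at up to 414 and 386 normalized reads, and in the other 10 panels the mean with DAC + ATRA is the lowest of the 4 groups.

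eIF3 was the largest complex, with 11 tested subunits. With DAC + ATRA 5 fell (EIF3A, EIF3B, EIF3E, EIF3H and EIF3M) and EIF3G rose. With DAC 3 fell (EIF3A, EIF3B and EIF3H) and EIF3G rose, and with ATRA no subunit passed the threshold. Of all rows, 14.2% fell and 32.6% rose with DAC + ATRA, and 8.74% and 30.6% with DAC. EIF3H, a subunit of the eIF3 core, had 233, 199 and 219 normalized reads without treatment, 142, 134 and 104 after DAC, 215, 189 and 161 after ATRA and 88.6, 101 and 112 after both agents. The ATRA libraries overlapped the untreated ones, and both sets of libraries with DAC lay below. The protein-coding transcript ENST00000521861 fell by 0.78 with DAC (SE 0.16, limma adjusted p = 0.000263) and by 1.10 with DAC + ATRA (adjusted p = 3.72e-06).

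EIF3B, a scaffold subunit, had 260.1, 289 and 250.3 normalized reads without treatment, 185, 155 and 186 after DAC, 147, 190.2 and 234 after ATRA and 164, 134 and 145 after both agents. The libraries of each treatment lay below the untreated ones. EIF3B fell by 0.60 with DAC (limma adjusted p = 0.00283) and by 0.85 with DAC + ATRA (adjusted p = 8.66e-05), and its log2 fold change with ATRA was -0.51 (adjusted p = 0.0321). The retained-intron transcript is ENST00000468611, on chromosome 7 from 2375975 to 2380740 (plus strand). EIF3E, a core subunit, had 43.2, 62.8 and 76.7 normalized reads without treatment, 42.2, 40.9 and 28.9 after DAC, 31.7, 60.1 and 46.6 after ATRA and 27.1, 27.4 and 44.5 after both agents. The lowest untreated library overlapped the DAC + ATRA libraries. The log2 fold change of its protein-coding transcript ENST00000521440 was -0.86 with DAC + ATRA (SE 0.27, limma adjusted p = 0.00973).

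EIF3A, the other scaffold subunit, fell by 0.42 with DAC (limma adjusted p = 0.00962) and by 0.67 with DAC + ATRA (adjusted p = 0.000152). EIF3M, a core subunit, fell by 0.57 with DAC + ATRA (adjusted p = 0.00366, limma). EIF3G rose from 125 ± 11.8 to 194 ± 34.0 normalized reads with DAC (log2 fold change 0.62, limma adjusted p = 0.00153) and to 179 ± 16.9 with DAC + ATRA (0.51, adjusted p = 0.0058). With TMM scaling neither rise of EIF3G passed the threshold (0.42, adjusted p = 0.0218, and 0.37, adjusted p = 0.0354). The EIF3G transcript, ENST00000589674, is annotated as a retained intron. EIF3I had the highest untreated level of the complex per kilobase (1829.5 normalized reads per kb), and its log2 fold change under DAC + ATRA came to -0.19 with a 95% interval from -0.37 to -0.0045. EIF3C, EIF3CL and EIF3L were not tested.

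Of the eIF4 group, the helicases EIF4A1 and EIF4A2 and their cofactor EIF4B fell with DAC + ATRA. The described transcripts of the scaffold proteins EIF4G2 (a retained intron) and EIF4G3 (coding sequence not defined) rose. EIF4B had the highest untreated level of the group per kilobase (1099.5 normalized reads per kb) and fell by 0.35 with DAC (SE 0.10, limma adjusted p = 0.00483) and by 0.62 with DAC + ATRA (adjusted p = 1.36e-05). EIF4A2 fell by 0.72 with DAC (limma adjusted p = 0.000108) and by 0.62 with DAC + ATRA (adjusted p = 0.000403). EIF4A1, the main helicase of the cap-binding complex, fell by 0.76 with DAC + ATRA (limma adjusted p = 0.000553) in a retained-intron transcript. In the protein-coding EIF4A1 transcript with the highest mean, the log2 fold change was 0.30 (adjusted p = 0.403). EIF4A1 and EIF4A2 are each represented by a retained-intron transcript. EIF4G3 rose from 109 ± 5.81 to 169 ± 20.6 normalized reads with ATRA (log2 fold change 0.63, limma adjusted p = 0.00408) and to 166 ± 14.6 with DAC + ATRA (0.61, adjusted p = 0.0012). Its paralogue EIF4G1, the scaffold of the cap-binding complex, had log2 fold changes of -0.06 with ATRA and -0.79 with DAC + ATRA (limma adjusted p = 0.94 and 0.0241). EIF4G2 (DAP5), a scaffold that lacks the site for the cap-binding protein, rose by 0.71 with DAC + ATRA (limma adjusted p = 0.00472), but not with TMM scaling (0.57, adjusted p = 0.02).

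The cap-binding protein EIF4E had log2 fold changes of -0.19, -0.32 and -0.28 with DAC, ATRA and DAC + ATRA, with 95% intervals from -0.56 to 0.19, from -0.69 to 0.05 and from -0.65 to 0.09. EIF4E2, which binds the cap without recruiting a scaffold, had intervals from -0.26 to 0.56, from -0.29 to 0.53 and from -0.31 to 0.52. EIF4E3, a paralogue, passed the threshold as lower with ATRA and did not pass it with DAC or with DAC + ATRA. It had 19.3, 28.2 and 22.2 normalized reads without treatment, 22.7, 16.6 and 17.9 after DAC, 9.50, 6.37 and 12.5 after ATRA and 28.03, 24.2 and 28.4 after both agents. The ATRA libraries lay below those of all other groups, with a mean of 9.45 normalized reads, close to the filter value of 10. EIF4E3 fell by 1.24 with ATRA (SE 0.28, limma adjusted p = 0.00346), and DAC + ATRA exceeded ATRA by 1.46 (adjusted p = 0.0002). The interaction of DAC and ATRA was 1.72 (log2, SE 0.39, limma adjusted p = 0.0111) and did not pass the threshold. EIF4E1B and EIF4H were not tested.

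No factor passed the threshold of 0.01 for the interaction in limma (background 0.786% higher and 1.67% lower), and 8 of 47 had an unadjusted p under 0.05, as did 17.1% of all rows. With edgeR 1 factor passed, EIF4E3 (adjusted p = 0.00957, at a background of 2.52%), but not without DAC library 6 (adjusted p = 0.0221). With DESeq2 none passed, at a background of 3.73%. In limma, 1 factor passed when ATRA library 9 was left out, while the count over all rows went from 222 to 483. Between DAC + ATRA and ATRA, 5 factors were higher (EIF1, EIF1B, EIF3G, EIF4E3 and EIF5A2) and 7 lower (EIF2B5, EIF2D, EIF2S3, EIF3A, EIF3H, EIF4B and EIF5B), at a background of 25.9% higher and 8.9% lower. With TMM scaling 3 were higher and 10 lower (background 23.7% and 13.5%), and EIF1B and EIF3G (0.47, limma adjusted p = 0.0118) were no longer called. The log2 fold changes ran from -1.27 for EIF2D (limma adjusted p = 1.06e-06) to 1.46 for EIF4E3. Over the alternative settings, that of EIF2B5 ranged from -0.97 to -0.32, and its call was lost in 1 setting. In the protein-coding transcript of EIF5B the log2 fold change was 0.34.

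EIF5A is the factor with the modified lysine hypusine that helps ribosomes through difficult peptide bonds. Its log2 fold changes after DAC, ATRA and both agents were 0.04, -0.29 and -0.30, with 95% intervals from -0.43 to 0.52, from -0.77 to 0.19 and from -0.78 to 0.18. EIF5A had the highest untreated level of its group per kilobase, 46.1 normalized reads per kb. The paralogue EIF5A2 rose from 185 ± 34.9 to 284 ± 45.4 normalized reads with DAC (log2 fold change 0.62, limma adjusted p = 0.00311). This call was lost with TMM scaling (0.42, adjusted p = 0.0181). DAC + ATRA exceeded ATRA alone by 0.69 (limma adjusted p = 0.00142). EIF5AL1, a copy of EIF5A without introns, had 41.4, 38.2 and 36.0 normalized reads without treatment, 34.6, 30.2 and 15.9 after DAC, 40.1, 34.6 and 19.1 after ATRA and 15.4, 18.9 and 18.5 after both agents. DAC library 6 and ATRA library 9 lay near the DAC + ATRA libraries, and the remaining DAC and ATRA libraries nearer to the untreated ones. EIF5AL1 fell by 1.09 with DAC + ATRA (SE 0.29, limma adjusted p = 0.00343). It lies on chromosome 10 from 79512533 to 79516440 (plus strand, ENST00000520547). Since it is nearly identical to EIF5A in sequence, reads of the pair may be divided between them and the values are uncertain. EIF6 was not tested.

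EEF2 and EEF1A1 did not pass the threshold with any treatment against untreated cells. EEF2 had 79854, 93768 and 85376 normalized reads without treatment, 101487, 91973 and 103355 after DAC, 85867, 96029 and 72429 after ATRA and 74393, 87370.1 and 79375 after both agents, or 27338 per kb in untreated cells, the highest untreated level per kilobase of all factors. The groups overlapped the untreated libraries. The log2 fold change was 0.20 with DAC (95% interval from -0.01 to 0.41), -0.03 with ATRA (from -0.24 to 0.17) and -0.10 with DAC + ATRA (from -0.31 to 0.10). EEF1A1 had 125 ± 27.98 normalized reads in untreated and 88.1 ± 2.44 in DAC + ATRA-treated cells (log2 fold change -0.48, limma adjusted p = 0.0358). EEF1E1 encodes AIMP3, a component of the multisynthetase complex that holds aminoacyl-tRNA synthetases. It had 117, 95.6 and 87.7 normalized reads without treatment, 53.0, 76.0 and 32.9 after DAC, 68.6, 51.0 and 46.6 after ATRA and 45.2, 28.4 and 42.0 after both agents. All treated libraries lay below the untreated ones. EEF1E1 fell by 0.95 with DAC (SE 0.26, limma adjusted p = 0.00425) and by 1.37 with DAC + ATRA (adjusted p = 0.000119), and its log2 fold change with ATRA was -0.85 (adjusted p = 0.0293). Its protein-coding transcript, ENST00000379715, lies on chromosome 6 from 8079395 to 8102548 (minus strand). EEF2K, the kinase that inhibits EEF2, had a log2 fold change of -0.04 with DAC + ATRA (95% interval from -0.23 to 0.16) and 166 normalized reads per kb in untreated cells. EIF1AD, a nuclear protein with a domain like that of eIF1A, was at 23.9 normalized reads per kb and had an interval from -1.38 to 0.33. EEF1A2, EEF1B2, EEF1D, EEF1G and EEF2KMT were not tested.

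Several calls rested on single libraries. With DAC + ATRA, 17 of 22 calls held with each of the 12 libraries left out in turn, and with DAC 6 of 16 did (EIF1, EIF2D, EIF2S2, EIF2S3, EIF3H and EIF4A2). The share of calls over all rows that held in the same way was not counted. These numbers therefore do not set the factors apart from other rows. The calls lost at least once with DAC + ATRA were those of EIF3E (highest limma adjusted p = 0.0624, without untreated library 3), EIF3G (0.0322, without untreated library 3), EIF3M (0.0327, without DAC + ATRA library 11), EIF4G2 (0.0398, without untreated library 1) and EIF5AL1 (0.0182, without DAC + ATRA library 10). With DAC they were those of EEF1E1 (0.0401), EIF3A (0.0684) and EIF4B (0.0401), each with its highest limma adjusted p without DAC library 6. EIF2A (0.0158) and EIF3G (0.0132) had theirs without DAC library 5, EIF2B4 (0.0549) and EIF2B5 (0.0174) without untreated library 1, EIF3B (0.0192) and EIF5B (0.0497) without untreated library 2, and EIF5A2 (0.0271) without untreated library 3. With ATRA, the call of EIF4E3 was lost without untreated library 2 (limma adjusted p = 0.0287) and that of EIF4G3 without ATRA library 8 (adjusted p = 0.0316). For DAC + ATRA against ATRA, the calls of EIF1B (0.0425, without ATRA library 9), EIF3A (0.0633, without DAC + ATRA library 11), EIF3G (0.0177, without DAC + ATRA library 10), EIF5A2 (0.0119, without DAC + ATRA library 12) and EIF5B (0.0238, without DAC + ATRA library 12) were lost.

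Other transcripts of the same genes were compared in a limma fit over 19373 transcripts of all types. It held 84 transcripts of the tested symbols, 37 of them in addition to those described above, in 21 genes. Of these 37, 2 rose and 3 fell with DAC (background 22.2% higher and 11.3% lower), 0 passed the threshold with ATRA in limma (background 5.11% and 1.87%), and 4 rose and 5 fell with DAC + ATRA (background 25.5% and 16.1%). With DAC + ATRA, 29 of 37 had the sign of the described transcript. No gene had transcripts called in both directions. All 3 tested EIF1 transcripts rose with DAC + ATRA, by 1.18, 0.72 and 0.79. Of the EIF3E transcripts all 5 were lower, with log2 fold changes from -1.83 to -0.86, and 3 of them passed the threshold. EIF3B had 5 tested retained-intron transcripts, with log2 fold changes from -0.96 to 0.11.

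EEF1A1 differed most between its transcripts. ENST00000455918, on chromosome 6 from 73517519 to 73523815 (minus strand), rose from 22.6 ± 4.43 normalized reads in untreated cells to 81.9 ± 37.7 with DAC (log2 fold change 1.74, limma adjusted p = 0.00174) and 90.1 ± 7.41 with DAC + ATRA (1.96, adjusted p = 0.000507). ENST00000309268 rose by 0.90 and 1.14. The transcript with the highest mean, ENST00000316292, had log2 fold changes of 0.06 and -0.48 and did not pass the threshold. EEF1A1 has many processed pseudogenes, and how reads shared with them were counted was not tested.

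**Figure D4:**
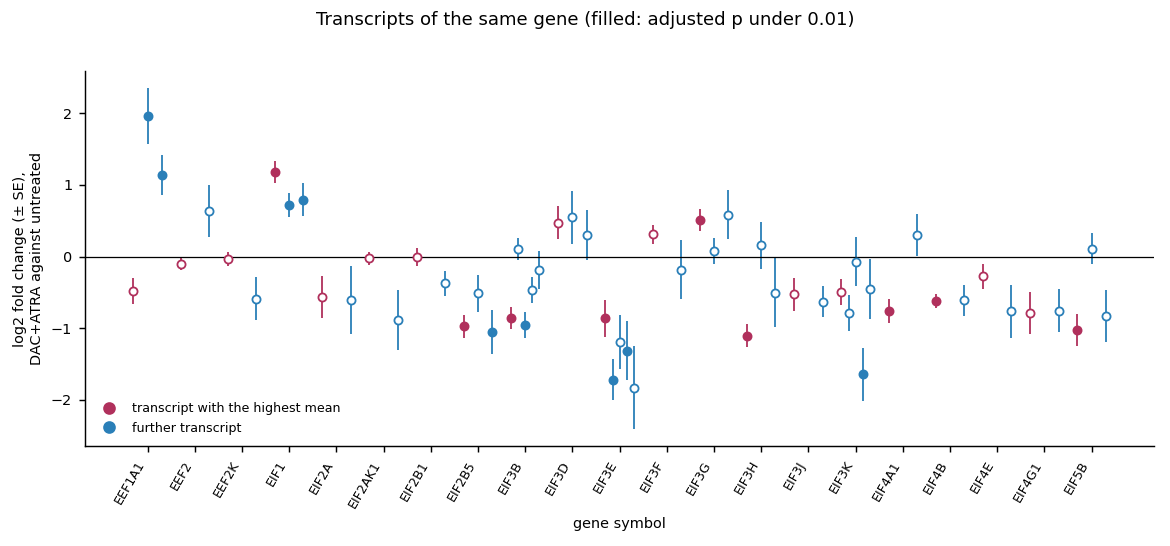
Log2 ratio of DAC + ATRA to untreated cells (y axis, ± SE) for all tested transcripts of the 21 genes (x axis) with more than 1; red is the transcript with the highest mean, blue the further transcripts, and filled points passed an adjusted p under 0.01 in limma. The EEF1A1 transcripts spread from -0.48 to 1.96, while the 3 EIF1 transcripts all lie above 0 and the 5 EIF3E transcripts all below.

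Of the tested factors, 11 have an annotated start with a pyrimidine tract, such as those printed for EIF4B and EIF2S3, and 30 have RefSeq starts without it. With DAC + ATRA, 5 of the 11 fell and 0 rose, against 8 and 4 of the 30, and the median log2 fold change was -0.57 in the first and -0.21 in the second set. With DAC, 5 of the 11 fell and 0 rose, against 4 and 3 of the 30, with medians of -0.35 and -0.13. With ATRA no factor with a tract passed the threshold, and the medians were -0.33 and -0.15. EEF2 and EIF3F carry a tract and did not pass the threshold, at -0.10 and 0.31 with DAC + ATRA. Over all rows, 8.74% fell and 30.6% rose with DAC, and 14.2% fell and 32.6% rose with DAC + ATRA. No test was made between the sets, which were formed from genes chosen by name, and for several genes the described transcript begins elsewhere than at the printed start.

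**Figure D5:**
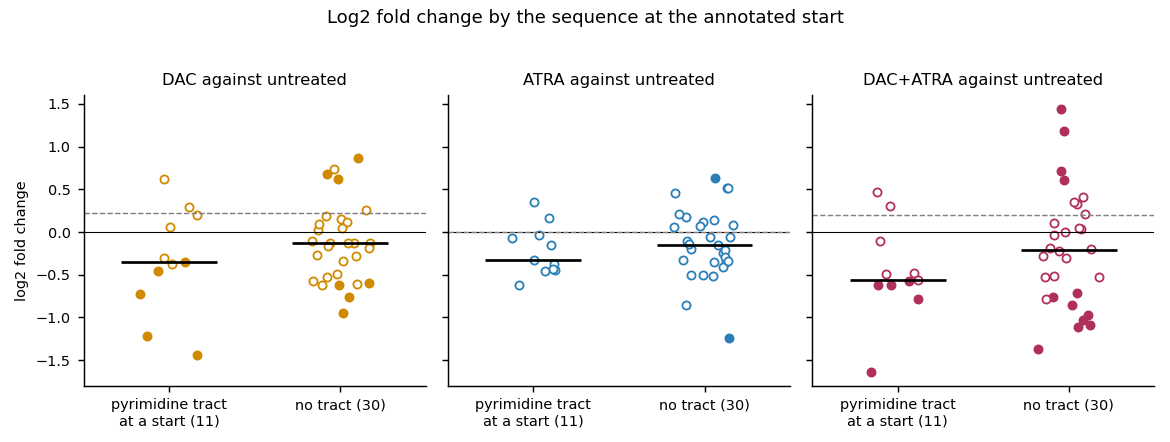
Log2 fold change (y axis) of the 11 tested factors with a pyrimidine tract at an annotated start and of the 30 without, for each treatment against untreated cells; filled points passed an adjusted p under 0.01 in limma, black bars are medians and the dashed line is the median of all rows. With DAC + ATRA the medians are -0.57 and -0.21, and the points of both sets overlap.

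Around the factors, 40 further translation genes were listed, such as regulators of eIF4E and eIF2, termination factors and mitochondrial translation factors, of which 19 were tested. With DAC 4 rose and 2 fell, with ATRA 0 rose and 2 fell, and with DAC + ATRA 5 rose and 5 fell. Of all rows, 30.6% rose and 8.74% fell with DAC, 6.45% and 2.67% with ATRA, and 32.6% and 14.2% with DAC + ATRA. With TMM scaling 3 rose and 6 fell after DAC (background 25.4% and 17.5%), and 5 rose and 8 fell after both agents (29.2% and 20.1%). PPP1R15A (GADD34, which directs a phosphatase to eIF2) rose from 617 ± 27.0 to 1475 ± 233 normalized reads with DAC and to 1358 ± 162 with DAC + ATRA (log2 fold change 1.13, limma adjusted p = 8.03e-06). The double-stranded RNA sensor and eIF2 kinase EIF2AK2 (PKR) rose by 0.59 with DAC + ATRA (adjusted p = 0.000144 in limma), GSPT2, a termination factor, by 0.89 and MCTS1, a partner of DENR in ribosome recycling, by 0.56. RPTOR, the mTORC1 subunit raptor, is counted among those that rose with DAC and with DAC + ATRA, but it met the filter only through the groups where it was high. It had 1.83 ± 1.82 normalized reads without treatment, 26.2 ± 11.4 after DAC, 2.92 ± 2.04 after ATRA and 10.2 ± 5.18 after both agents. EIF4EBP1, the inhibitor of EIF4E that mTOR controls, fell by 1.13 with DAC + ATRA (limma adjusted p = 0.000509), from 142 ± 9.25 to 65.1 ± 10.7 normalized reads. ABCE1, which splits ribosomes after termination, fell by 0.99 (adjusted p = 7.3e-05, limma), DPH6, an enzyme of the diphthamide modification of EEF2, by 1.09, PAIP2B, an inhibitor of the poly(A)-binding protein, by 0.77, and TUFM, the mitochondrial elongation factor Tu, by 0.53.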

How the data were processed

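Total RNA of U937 cells was depleted of ribosomal RNA and sequenced as stranded paired-end libraries. Per the labels and the study's methods, the authors aligned to hg38 with STAR, counted with HTSeq and normalized with DESeq2, with FastQC for read quality; versions, annotation release and strand setting are not given in the sources used here. The deposited values are a signal, read counts per transcript divided by 1 size factor per library. Dividing by that step gave whole reads for 100% of values (tolerance 0.01 reads), 8042435 to 10683593 per library. A library's 3 reads correspond to 2.50 to 3.71 normalized reads. The matrix columns name groups and carry running numbers, by which libraries are called here.

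Rows were matched by transcript identifier to GENCODE 44 (174768 of 197782). Protein-coding transcripts and the factors' own rows, with at least 10 normalized reads in at least 3 libraries, were tested with limma 3.58.1 (trend and robust, R 4.3.3) after adding 1 to the normalized read count and taking log2; 1 fit held the 12 libraries, with Benjamini-Hochberg adjustment over 9034 rows at a threshold of 0.01. Fold changes are on this scale, which understates those of low rows. Alternatives were edgeR 4.0.16, DESeq2 1.42.0, TMM and library size scaling, other filters, pseudocount 0.1, symbol sums, the protein-coding row and leaving out each library. edgeR without DAC library 6 was chosen after the data were seen. Simulated data for DAC against untreated held 9034 rows, of which 200 were changed, whereas 3556 rows passed in the real data. There limma found 77.8% of 99 rows changed 2-fold and 100% of 101 changed 4-fold. It also called 18 unchanged rows, a larger share of its calls than the threshold of 0.01. The changed rows were drawn only from rows above a floor in mean reads. Recovery in low rows such as EIF4ENIF1 was therefore not tested.

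The factors and lists were chosen with earlier results of these data known. Values are given for factors past the threshold in any comparison, the highest level per kilobase of each role and set paralogue pairs, in every library for the 12 largest changes with DAC + ATRA, and for EEF2 and EIF4E3 after their values were seen, as were others that did not pass. Not tested: 14 factors, 6 of them without a read. Figures were drawn with matplotlib 3.10.9.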

Additional observations from a re-analysis of the deposited data

How the results depend on the processing

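No paired analysis was possible because the matrix columns carry running numbers and not the replicate numbers of the labels. With the protein-coding row of the highest mean, which could be tested for 34 factors, 8 factors passed the threshold with DAC, 1 with ATRA, 13 with DAC + ATRA and 7 between DAC + ATRA and ATRA (39.3%, 9.14%, 46.8% and 34.8% of all rows), and EIF4A1 with DAC + ATRA (0.30) and EIF5B with DAC + ATRA (0.11 against untreated cells and 0.34 against ATRA) changed sign, these being other transcripts. The count with ATRA was 5 with edgeR, 4 with DESeq2, 5 with library size scaling, 4 with TMM scaling, 1 with at least 10 reads in every library, 0 with only the groups compared, 5 with edgeR without DAC library 6 and 7 at a threshold of 0.05, where the shares of all rows called were, in this order, 10.9%, 11%, 11%, 11.3%, 10.6%, 6.38%, 11.4% and 14.6%. Between DAC + ATRA and DAC it was 2 with DESeq2, 4 with library size scaling, 3 with edgeR without DAC library 6 and 4 at a threshold of 0.05, against 14.2%, 13.2%, 12.7% and 17.9% of all rows. For the interaction, 1 factor passed with edgeR, with summed symbols and at a threshold of 0.05, and 0 with edgeR without DAC library 6, against 2.52%, 2.71%, 5.06% and 2.21% of all rows. When each library was left out, the counts ran from 8 to 16 with DAC, 0 to 4 with ATRA, 17 to 22 with DAC + ATRA, 1 to 3 for DAC + ATRA against DAC, 8 to 12 against ATRA and 0 to 1 for the interaction, and those over all rows from 3006 to 3886, 620 to 1027, 3645 to 4501, 750 to 1253, 2633 to 3158 and 148 to 483. With counts this low for ATRA, the cause of the changes was not tested. Rows near 10 normalized reads, such as EIF4ENIF1, limit what can be seen.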

Other observations

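Among the symbols left out for their hyphen, EIF3J-AS1, a noncoding RNA on the strand opposite to EIF3J, had 69.9, 62.8 and 60.03 normalized reads in the untreated libraries and 60.6, 45.3 and 48.2 in those with DAC + ATRA. The log2 fold change was -0.33 (limma over all transcripts, SE 0.20, adjusted p = 0.172).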
